A study of Mus musculus with 8 samples.

Results

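The data described here compare resting RAW264.7 cells, a mouse macrophage-like cell line, with and without knockdown of Dab2. The shDab2 cells stably expressed a short hairpin RNA (shRNA) against Dab2 and the shLuc control cells one against luciferase, which the cells do not make, and both were given PBS alone (CTL). The 4 arrays of this comparison, 2 of each line, are taken from 8, the other 4 being the same lines after 6 h of lipopolysaccharide (LPS), the bacterial ligand of Toll-like receptor 4. Total RNA was labeled with Cy5 and hybridized to 1-colour Phalanx OneArray mouse arrays, and each of the 26423 probes gives an intensity, of which 21876 carry a gene symbol, for 19085 genes in all.

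Both lines were selected with puromycin after lentiviral infection. Each carried 1 hairpin on the arrays, so an effect of Dab2, of the hairpin and of the selection of the line cannot be told apart here. The labels do not say whether the 2 replicates of a group were separate cultures, and p-values therefore refer to the spread among the arrays alone, which may be technical, with 2 arrays a group setting the precision. RNA was taken from whole cultures, in which fewer cells of a state and less RNA per cell cannot be told apart. The deposited intensities differed in level between the lines, with a median of 20 and 25 on the shLuc and 36 and 37 on the shDab2 PBS arrays, and all 8 arrays were quantile-normalized before the test. Levels below are normalized intensities in the order replicate 1 and replicate 2. Differences are log2 fold changes of shDab2 over shLuc on the scale log2(intensity + 50), which understates the change of dim genes, with the standard error after the ± sign. A gene was called at an adjusted p under 0.05 (limma, Benjamini-Hochberg over all probes), and each gene was read from its brightest probe.

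Dab2 is a cytosolic adaptor that links the tails of cargo receptors to clathrin and the AP-2 complex at the plasma membrane, and it has been tied to signaling by TGF-β and Wnt. Several of the largest differences lay in genes of the amino acid response. In that pathway, a shortage of amino acids or a load of unfolded protein leads to phosphorylation of the initiation factor eIF2α, the transcription factor ATF4 is then translated, and ATF4 drives genes for amino acid synthesis, uptake and tRNA charging through a C/EBP-ATF response element (CARE).

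The promoters of these genes are shown first, since 5 of the 20 largest falls were of genes on these lists. The genes printed below were chosen because they were called lower and held a match before a gene start. Of those 5 largest falls, only Chac1 is among them. The letters TGATGNAA, the core of the CARE, were searched on both strands from 250 bases before to 50 bases after the gene start in the RefSeq promoter table (GRCm38.p6). They occurred in 498 of the 14953 array genes with a promoter in the table (3.33%), in 9 of 22 genes of the ATF4 list (40.9%), in 5 of 12 genes for cytosolic aminoacyl-tRNA synthetases (41.7%), in 2 of 13 amino acid transporter genes (15.4%) and in 0 of 12 genes of serine, glycine and one-carbon metabolism. The lists came from textbook knowledge, so these shares describe the lists and not the difference between the lines. Below, the match is in capitals within its surroundings up to the gene start, read along the strand of the gene.
Asns (chr6:7693210-7693250, minus strand): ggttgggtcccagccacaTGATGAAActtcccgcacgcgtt
Chac1 (chr2:119351031-119351074, plus strand): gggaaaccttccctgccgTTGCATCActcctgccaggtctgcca
Nupr1 (chr7:126625555-126625598, minus strand): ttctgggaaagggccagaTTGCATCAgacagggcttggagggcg
Jdp2 (chr12:85599365-85599408, plus strand): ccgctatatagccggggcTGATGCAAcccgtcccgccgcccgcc
Gars (chr6:55037953-55037996, plus strand): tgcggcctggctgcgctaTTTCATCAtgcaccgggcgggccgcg
Tars (chr15:11399659-11399691, minus strand): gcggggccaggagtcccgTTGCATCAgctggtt
The match began 23 bases before the gene start in Asns, 193 in Chac1, 110 in Nupr1, 30 in Gars and 15 in Tars. In Jdp2 it began 33 bases before another start, which lies inside the gene, downstream of its outermost start at chr12:85598656. Each is a match of letters and not a measured binding site.

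**Figure D1:**
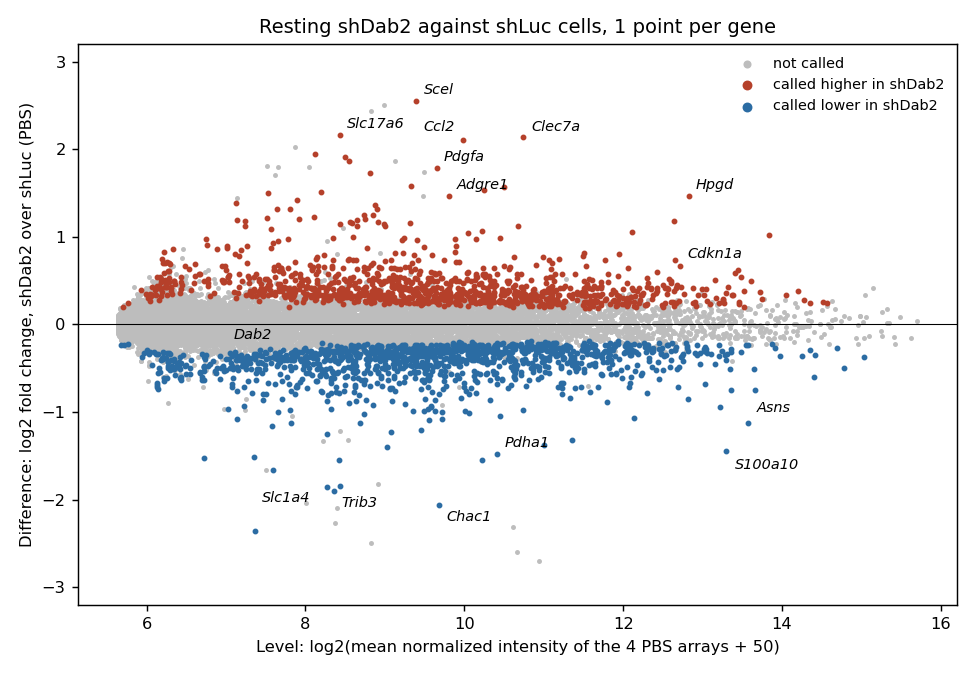
Each point is a gene, with its level on the 4 PBS arrays on the horizontal axis (log2 of the mean normalized intensity plus 50) and the log2 fold change of shDab2 over shLuc cells on the vertical axis. Red points were called higher and blue points lower in shDab2 cells, Dab2 itself lies among the dim genes that were not called, and 4 genes beyond 3.2 on the vertical axis are not drawn.

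In resting cells, 1078 of the 19085 genes were called higher in the shDab2 line (5.65%) and 1221 were called lower (6.4%). Among the 9631 genes that reached an intensity of 50 in either line, the shares were 10.6% and 12.1%. Most differences were small, with a median size of 0.38 in both directions, and 49 genes were higher and 32 lower by more than 1. Past a log2 fold change of 1.5 lay 23 higher and 22 lower genes, or 0.236% of all, without a test. The balance of directions rests on the normalization, since 5258 genes were called higher and 339 lower on intensities that had not been normalized, where the median gene was higher by 0.13. Of the falls named below, those of Ap2a2, Ap2m1, Dnm2, Slc6a9, Shmt1, Qars, Yars, Hspa5, Foxm1, Kif23, Mki67, Itgam and Tnf were not called on those intensities. The PBS arrays of the lines did not overlap for any of the 1078 genes called higher or the 1221 called lower, so that non-overlap sets no called gene apart. With any 1 of the 4 arrays left out, 625 to 662 genes were called higher and 694 to 740 lower.

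The targeted gene was dim. Dab2 lay at 91.1 and 88.1 on the shLuc arrays and 59.1 and 76 on the shDab2 arrays (log2 fold change -0.25 ± 0.12, adjusted p = 0.26). Both shDab2 arrays were below both shLuc arrays, but the difference did not pass the test. With LPS, Dab2 lay at 52.2 and 72.4 in shLuc and 39.1 and 34.8 in shDab2 cells. The single Dab2 probe is therefore close to the limit of 50 used here for a measured level, and it gives no extent of the knockdown. The paper reported that Dab2 protein was lower in this line by Western blot, a measure of protein and not of RNA.

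Of the 47 measured genes of clathrin endocytosis and Dab2 partners, 3 were called higher (6.38%) and 8 lower (17%). The shares were 5.65% and 6.4% over all genes, and 10.6% and 12.1% among genes that reached 50. The list is thus not far from the genes of that level. Its median was -0.05 (0.13 on unnormalized intensities, as for all genes). Cltc, the clathrin heavy chain, lay at 5765 and 5635 on the shLuc arrays and 5486 and 5530.0 on the shDab2 arrays and was not called (log2 fold change -0.05 ± 0.06, adjusted p = 0.74). Ap2a2, a large subunit of AP-2, fell from 796 and 789 to 545 and 545 (-0.50 ± 0.07, adjusted p = 0.0007). Snx9, which helps dynamin to cut vesicles from the membrane, fell from 4415 and 3980.0 to 3078 and 2810.0 (-0.50 ± 0.07, adjusted p = 0.00061). Both shDab2 arrays lay below both shLuc arrays for each of these 3 genes, by a small margin for Cltc. Dnm2, the dynamin of most cell types, fell by 0.41 and Necap1, which binds AP-2, was higher by 0.39. Ap2m1, the medium subunit of AP-2, lay at 1623 and 1432 on the shLuc arrays and 1095 and 1307 on the shDab2 arrays (-0.34 ± 0.09, adjusted p = 0.043), a call that was lost without either shLuc array or shDab2 replicate 1 (adjusted p up to 0.32).

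The study asked how Dab2 bears on TLR4. By flow cytometry, the paper reported more TLR4 with its MD-2 subunit on the surface of resting shDab2 than shLuc cells. That is a measure of surface protein, whereas the values here are of RNA. Tlr4, the LPS receptor, lay at 273 and 288 on the shLuc arrays and 288 and 307 on the shDab2 arrays (log2 fold change 0.07 ± 0.07, adjusted p = 0.65). Cd14, which hands LPS to the receptor, lay at 25762 and 27249 on the shLuc arrays and 22931 and 22429 on the shDab2 arrays (-0.22 ± 0.31, adjusted p = 0.79). The fit pooled the spread of all groups, and the shLuc LPS arrays lay far apart for Cd14, at 51011 and 19250. Its standard error therefore reflects mainly those LPS arrays. Cd14 was not called in a fit to the 4 PBS arrays alone either, and a missing call does not show that the lines were equal. Ly96, which encodes the MD-2 subunit of the receptor, lay at 1219 and 1172 on the shLuc arrays and 1710.0 and 1349 on the shDab2 arrays (0.33 ± 0.09, adjusted p = 0.039), and that call was lost without either shLuc array or shDab2 replicate 1 (adjusted p up to 0.26). Of these 3 genes, the arrays of the lines overlapped for Tlr4 alone. On unnormalized intensities Tlr4 was called higher (0.34, adjusted p = 0.0043), as were Cltc (0.23) and Actb (0.29). The adaptors Myd88 (-0.16 ± 0.08, adjusted p = 0.28) and Ticam1, which encodes TRIF (-0.06 ± 0.08, adjusted p = 0.79), were not called. Further down the pathway the directions were mixed, with 6 of 28 measured genes called higher and 7 lower: Ticam2, the TRAM adaptor, was higher by 0.46, Irak2, a kinase of the MyD88 branch, by 0.38 and Ikbke, a kinase of interferon induction, by 0.43, whereas Tab2, a partner of the kinase TAK1, fell by 0.61.

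Genes of the amino acid response were lower in shDab2 cells. Of the 24 measured genes of the ATF4 list, 12 were called lower and 1 higher (50% and 4.17%), with a median of -0.53 beside -0.00 over all genes. On unnormalized intensities the medians were -0.26 for the list and 0.13 over all genes. Chac1, which degrades glutathione, lay at 1226 and 1324 in shLuc and 264 and 271 in shDab2 cells (-2.06 ± 0.06, adjusted p = 1.1e-08). Trib3, a pseudokinase that feeds back on ATF4, fell from 474 and 466 to 94.9 and 84.3 (-1.90 ± 0.07, adjusted p = 7.6e-08). Cth, the enzyme that makes cysteine from cystathionine, fell from 518 and 468 to 99.2 and 103 (-1.85 ± 0.07, adjusted p = 1.4e-07). All 3 genes were thus 4.76 to 5.25-fold lower in shDab2 cells by the ratio of means, and the replicates of a line were far closer than the lines.

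Asns, which makes asparagine, lay at 16254 and 16956 in shLuc cells against 7774 and 7410.0 in shDab2 cells (-1.12 ± 0.06, adjusted p = 1e-06). Nupr1, a small stress-induced chromatin protein, fell from 488 and 547 to 217 and 202 (-1.13 ± 0.11, adjusted p = 7.1e-05). Atf5, a transcription factor related to ATF4, fell from 3802 and 3842 to 2316 and 2141 (-0.77 ± 0.06, adjusted p = 3.2e-05). Jdp2, a partner of AP-1 factors, and Gpt2, a mitochondrial alanine aminotransferase, fell by 0.67 and 0.64.

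Uptake of amino acids showed fewer calls, with 5 of 18 measured transporter genes lower and 0 higher, and a list median of -0.01 (0.18 on unnormalized intensities). Slc1a4, a carrier of alanine, serine and cysteine, lay at 447 and 420.0 in shLuc and 81.6 and 83.8 in shDab2 cells (-1.86 ± 0.08, adjusted p = 3e-07). Slc7a5, the light chain of the large neutral amino acid carrier, fell from 462 and 489 to 262 and 295 (-0.68 ± 0.07, adjusted p = 0.00014). Its heavy chain Slc3a2 fell from 3331 and 3428 to 2315 and 2405 (-0.51 ± 0.05, adjusted p = 0.00018). Both chains of this carrier were therefore lower, the light chain by 1.71-fold and the heavy chain by 1.43-fold. Slc6a9, a glycine carrier, fell by 0.50.

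On the list of serine, glycine and one-carbon enzymes, 8 of 14 genes were called lower (57.1%) and 1 higher. The median was -0.41, and -0.12 on unnormalized intensities. The list also holds Aldh18a1, an enzyme of proline synthesis, which is among the 8. Aldh1l2, the mitochondrial enzyme that oxidizes formyl-tetrahydrofolate, lay at 238 and 248 in shLuc cells but at 36.9 and 48.4 in shDab2 cells, where both arrays were below 50, so it was at least 4.86-fold lower (-1.66 ± 0.08, adjusted p = 8.1e-07). Psph, the last step of serine synthesis, fell from 2114 and 2318 to 1132 and 1068 (-0.98 ± 0.11, adjusted p = 0.0002). Aldh18a1, which starts proline synthesis, fell from 950.1 and 926 to 451 and 463 (-0.96 ± 0.06, adjusted p = 6.9e-06). Each of these enzymes was lower in shDab2 cells by a factor of 2 or more. The mitochondrial folate enzymes Mthfd2, Shmt2 and Mthfd1l fell by 0.86, 0.73 and 0.54, and the cytosolic Shmt1 by 0.50. Mthfd2l, a paralog of Mthfd2, went the other way, from 145 and 145 to 199.9 and 209.8 (0.39 ± 0.07, adjusted p = 0.0067), although the call was lost without shDab2 replicate 2 (adjusted p = 0.064).

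Among the cytosolic aminoacyl-tRNA synthetases, which load amino acids onto tRNAs, 9 of 19 were called lower (47.4%) and 0 higher, with a median of -0.30. On unnormalized intensities that median was -0.01, beside 0.13 over all genes. The largest fall was that of Cars, for cysteine, from 612 and 622 to 357 and 349.8 (-0.73 ± 0.07, adjusted p = 5.8e-05). Nars, for asparagine, fell from 6657 and 6862 to 4441 and 4301 (-0.62 ± 0.06, adjusted p = 9.9e-05), and Sars, for serine, from 3691 and 4299 to 2700.0 and 2618 (-0.57 ± 0.07, adjusted p = 0.00039). Iars, Tars, Gars, Qars and Yars had log2 fold changes of -0.54 to -0.43. Of the 27 genes of the 4 lists that were called lower and had a promoter in the table, 10 held the CARE letters (37%), against 6 of the 32 that were not called lower (18.8%). The 4 lists differ in their share of matches, from 0 of 12 one-carbon genes to 41.7% of the synthetase genes. Some genes of the lists were also too dim to be called readily. The pooled shares therefore depend on the mix of lists and levels, and no test was made of that difference.

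**Figure D2:**
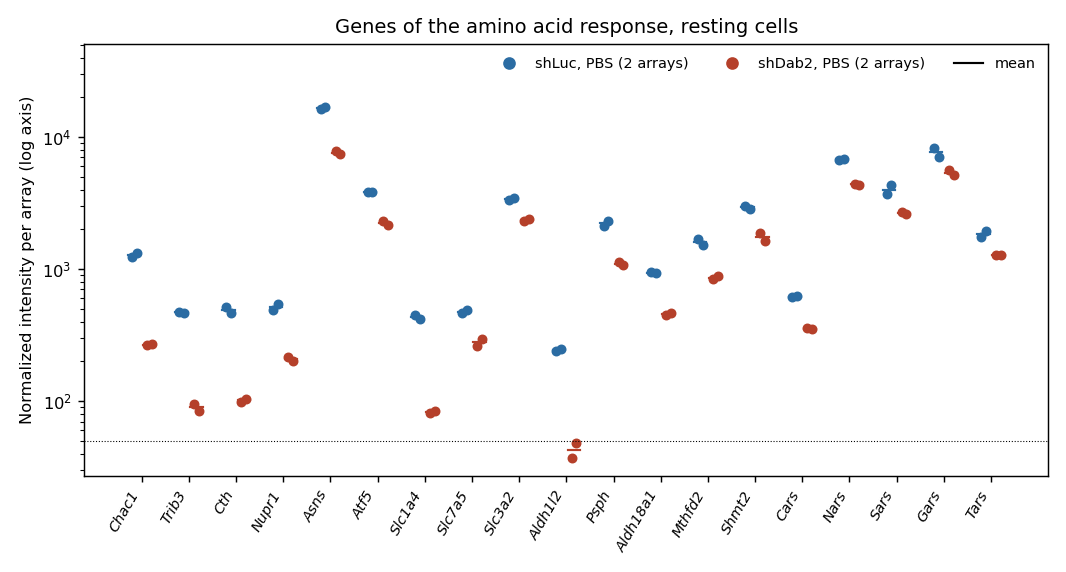
Normalized intensities (log axis) of 19 genes called lower, chosen from the ATF4, transporter, one-carbon and tRNA synthetase lists. The 2 shLuc (blue) and 2 shDab2 (red) PBS arrays are drawn, with a short line at the mean and a dotted line at 50. As for every gene called lower, both shDab2 arrays lie below both shLuc arrays, and Aldh1l2 falls below 50.

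With LPS, the shDab2 line was again lower than the shLuc line for Chac1 (4468 and 4458 in shLuc and 3360.0 and 3252 in shDab2 cells, log2 fold change -0.43), Trib3 (-0.51), Asns (-0.52), Slc1a4 (-1.12) and Cth (-1.37). Nupr1 was not called there (-0.07, adjusted p = 0.75), nor was Mthfd2 (0.11, adjusted p = 0.47). The whole ATF4 list counted 9 genes lower and 4 higher with LPS, beside 11.6% of all genes lower and 9.07% higher in that contrast, which uses none of the resting arrays.

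The genes of endoplasmic reticulum chaperones and the unfolded protein response, whose stress also acts on an eIF2α kinase, were called lower for 10 of 30 and higher for 0, with a median of -0.18 that became 0.04 on unnormalized intensities. When 1 array was left out, 5 to 6 were called lower. Herpud1, which takes part in degradation at the endoplasmic reticulum, fell from 6028 and 5318 to 3851 and 3669 (-0.58 ± 0.07, adjusted p = 0.00033). Hspa5, the chaperone BiP, fell from 10325 and 10733 to 7801 and 7598 (-0.45 ± 0.06, adjusted p = 0.0011).

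Growth and survival genes also differed. Of 28 measured p53 targets, 10 were called higher (35.7%) and 3 lower, with a median of 0.16. Phlda3, an inhibitor of Akt, lay at 103 and 100.2 in shLuc and 379 and 387 in shDab2 cells (1.51 ± 0.08, adjusted p = 1.7e-06). Trp53inp1, a p53 cofactor, rose from 80.6 and 78.1 to 279 and 316 (1.42 ± 0.10, adjusted p = 1e-05). Cdkn1a, the cell cycle inhibitor p21, rose from 5185 and 5138 to 8117 and 8326 (0.67 ± 0.05, adjusted p = 2.8e-05). Both lines were well separated for all 3 genes. Ccng1, cyclin G1, was higher by 0.82, Zmat3, an RNA-binding protein, by 0.64 and Sesn1, a sestrin, by 0.54. With LPS, Cdkn1a was higher by 0.57 in the shDab2 line, while Trp53inp1 (0.08, adjusted p = 0.68) and Zmat3 (-0.00, adjusted p = 1) were not called.

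Genes of G1/S and DNA replication were called lower for 13 of 37 (35.1%) and higher for 1, with a median of -0.19 that turned to 0.06 on unnormalized intensities. Gins2, a subunit of the GINS replication complex, fell from 491 and 555 to 237 and 226 (-1.02 ± 0.08, adjusted p = 2.7e-05). Gins1 of the same complex fell from 854 and 911 to 436 and 498 (-0.85 ± 0.08, adjusted p = 0.0001). Mcm2, part of the replicative helicase, fell from 849 and 834 to 566 and 525 (-0.58 ± 0.06, adjusted p = 0.00016). The exception was Ccnd3, cyclin D3, which was higher by 0.42. Genes of mitosis and G2/M were lower for 14 of 35 (40%) and higher for 0, with a median of -0.16 that turned to 0.08 without normalization, where 0 of them were called lower. Foxm1, a transcription factor of G2 genes, fell by 0.44 and Kif23, a kinesin of cytokinesis, by 0.32. Mki67, the proliferation marker Ki-67, lay at 4177 and 4006 on the shLuc arrays and 3440.0 and 3418 on the shDab2 arrays (-0.25 ± 0.06, adjusted p = 0.02), and this small difference became 0.02 on unnormalized intensities and was not called with any 1 array left out (adjusted p 0.053 to 0.13). With 1 array left out, 4 to 9 of the replication genes and 7 to 8 of the mitosis genes were called lower.

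The labeled cell type was checked against marker genes. The summed level of 34 macrophage identity markers was 186934 to 191155 on the 4 arrays, while those of the mast cell and basophil, neutrophil, and fibroblast and epithelial lists were 162 to 275 and those of the dendritic cell and lymphocyte lists 366 to 488, near background. Of these other lists 4 genes were called, and only Icos, a T cell costimulator, reached a mean of 50, at 38.4 and 45 on the shLuc arrays and 112 and 123 on the shDab2 arrays (0.87 ± 0.10, adjusted p = 0.00037). Within the macrophage list, 11 genes were called higher and 4 lower, with a median of 0.10. Clec7a, the β-glucan receptor dectin-1, lay at 557 and 601 in shLuc and 2660.0 and 2791 in shDab2 cells (2.14 ± 0.06, adjusted p = 1.1e-08). Adgre1, the F4/80 antigen, rose from 445 and 415 to 1295 and 1242 (1.46 ± 0.08, adjusted p = 1.2e-06). Itgax, the integrin CD11c, rose from 70.2 and 58.1 to 219 and 253 (1.32 ± 0.09, adjusted p = 6.8e-06). Levels of these surface markers were thus 2.95 to 4.71-fold higher in shDab2 cells. Fcgr3, an activating Fc receptor, rose from 281 and 266 to 661 and 641 (1.12 ± 0.08, adjusted p = 1.6e-05). Cd36, a scavenger receptor, was below 50 in shLuc cells and lay at 93.1 and 91.5 in shDab2 cells, at least 1.85-fold higher (0.98 ± 0.10, adjusted p = 0.00013). Axl, a receptor for apoptotic cells, was higher by 0.73.

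Other markers of the same cells did not follow. Itgam, the integrin CD11b, fell from 1184 and 1116 to 856 and 814 (-0.44 ± 0.07, adjusted p = 0.0017). Csf1r, the receptor of the macrophage growth factor, lay at 13432 and 13548 on the shLuc arrays and 11977 and 10868 on the shDab2 arrays and was not called (-0.24 ± 0.07, adjusted p = 0.061), although it passed when arrays were scaled by their 75th percentile. Cd14, given above, was lower on both shDab2 arrays and was not called, nor was it in the fit to the PBS arrays alone. In the main fit its error reflects mainly the shLuc LPS arrays. Among transcription factors of myeloid cells, 11 of 32 were higher and 3 lower: Egr2, an early growth response factor, rose from 164 and 153 to 668 and 616 (1.73 ± 0.07, adjusted p = 1.4e-07). Bhlhe40, a transcriptional repressor, rose from 356 and 349 to 771 and 698 (0.96 ± 0.07, adjusted p = 1.7e-05). Irf8 and Klf4, factors of monocyte identity, fell by 0.45 and 0.59. Thus the myeloid factors moved in both directions. With any 1 array left out, 7 of the 32 were called higher.

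**Figure D3:**
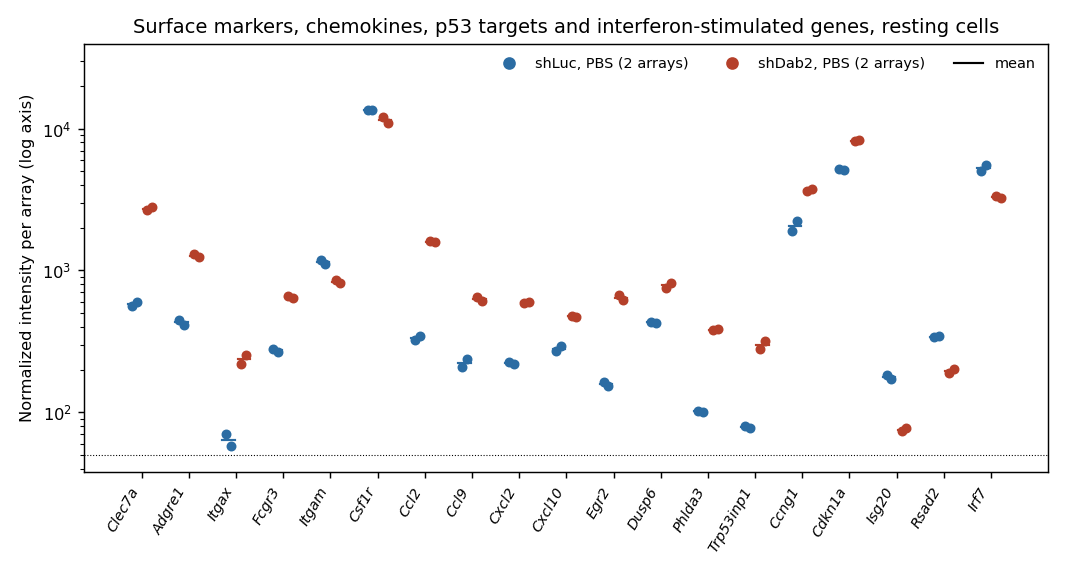
Normalized intensities (log axis) on the 2 shLuc (blue) and 2 shDab2 (red) PBS arrays for surface markers, chemokines, Egr2 and Dusp6, p53 targets and interferon-stimulated genes, with a line at the mean and a dotted line at 50. Clec7a, Adgre1 and Itgax lie higher in shDab2 cells, Itgam, Isg20, Rsad2 and Irf7 lie lower, and the small difference of Csf1r was not called.

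Of 25 measured chemokine genes, 8 were called higher in resting shDab2 cells (32%) and 1 lower, and 5 to 6 were called higher with 1 array left out. Ccl2, which attracts monocytes, lay at 324 and 345 in shLuc and 1613 and 1576 in shDab2 cells (2.10 ± 0.05, adjusted p = 1.1e-08). Ccl9 rose from 209 and 236 to 649 and 613 (1.32 ± 0.07, adjusted p = 1e-06). Cxcl2, which attracts neutrophils, rose from 225 and 220.4 to 593 and 603 (1.25 ± 0.06, adjusted p = 8.1e-07). These levels are low beside those with LPS, where Cxcl2 reached 32851 and 33856 in shLuc and 38232 and 43022 in shDab2 cells. Il1b, the cytokine interleukin-1β, lay at 60.2 and 55.1 on the shLuc arrays and 151 and 147 on the shDab2 arrays (0.89 ± 0.05, adjusted p = 3.4e-06), against 17391 and 16857 in shLuc cells with LPS. Tnf, the tumor necrosis factor, lay at 328 and 335 on the shLuc arrays and 224 and 284 on the shDab2 arrays (-0.33 ± 0.08, adjusted p = 0.023), a call that was lost without either shLuc array or shDab2 replicate 1 (adjusted p up to 0.16). Il15, a growth factor of natural killer cells, was higher by 0.63.

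Growth factors showed one of the largest rises. Pdgfa, a chain of platelet-derived growth factor, lay at 317 and 309.8 in shLuc and 1196 and 1200.0 in shDab2 cells (1.78 ± 0.07, adjusted p = 1.4e-07), while Pdgfb was higher by 0.35. Vegfa, the angiogenic factor, fell from 1259 and 1195 to 677 and 652 (-0.84 ± 0.06, adjusted p = 1.1e-05). Among NF-κB feedback genes, 8 of 23 were called higher and 2 lower (median 0.17), and 4 to 5 were called higher with 1 array left out. Cd83, an activation marker, rose from 248 and 247 to 626 and 610.1 (1.17 ± 0.06, adjusted p = 7.2e-07). Nfkbiz and Relb, members of the NF-κB and IκB families, were higher by 0.64 and 0.42. Of the immediate early genes and MAP kinase feedback genes, 8 of 41 were higher and 6 lower: Dusp6, a phosphatase of ERK, was higher by 0.79 and Phlda1, induced by growth factors, by 1.53, whereas Fos, a subunit of AP-1, fell by 0.66.

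Interferon-stimulated genes were lower in resting shDab2 cells for 17 of 36 (47.2%) and higher for 2, with a median of -0.25 that became 0.02 on unnormalized intensities, where 9 were called lower. The letters GAAANNGAA, the core of the interferon-stimulated response element, were searched on both strands and may overlap one another. They occurred in 15 of 25 promoters of the list in the table (60%), in 7 of the 12 called lower (58.3%), and in 1330 of 14953 promoters of all array genes (8.89%). This list, too, came from textbook knowledge, so its share describes the list and not the difference between the lines. The surroundings of a match in the promoters of Isg15 and Rsad2, with the match in capitals, are shown because both were called lower at rest and higher with LPS.
Isg15 (chr4:156200858-156200902, minus strand): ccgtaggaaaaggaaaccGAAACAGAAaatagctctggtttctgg
Rsad2 (chr12:26456545-26456589, minus strand): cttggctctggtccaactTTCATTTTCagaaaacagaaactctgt
Isg20, an exonuclease against viral RNA, lay at 184 and 172 in shLuc and 74.1 and 77 in shDab2 cells (-0.86 ± 0.07, adjusted p = 2.7e-05). Rsad2, the antiviral enzyme viperin, fell from 341 and 342 to 189.6 and 203 (-0.67 ± 0.06, adjusted p = 3.4e-05). Isg15, a ubiquitin-like modifier, fell from 1258 and 1325 to 808 and 869.9 (-0.59 ± 0.06, adjusted p = 0.00014). Irf7, the master factor of interferon genes, fell by 0.67 and Oas2, a sensor of double-stranded RNA, by 0.84. Cxcl10, an interferon-inducible chemokine, went the other way, from 269.6 and 293 to 481 and 467 (0.66 ± 0.08, adjusted p = 0.0003). With LPS, 30 of the 36 were called higher in the shDab2 line and 0 lower, with a median of 0.70, and Rsad2 then lay at 1743 and 1691 in shLuc and 4736 and 4641 in shDab2 cells. Ifnb1, interferon-β itself, was below 50 on all 4 resting arrays and has no fold there.

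**Figure D4:**
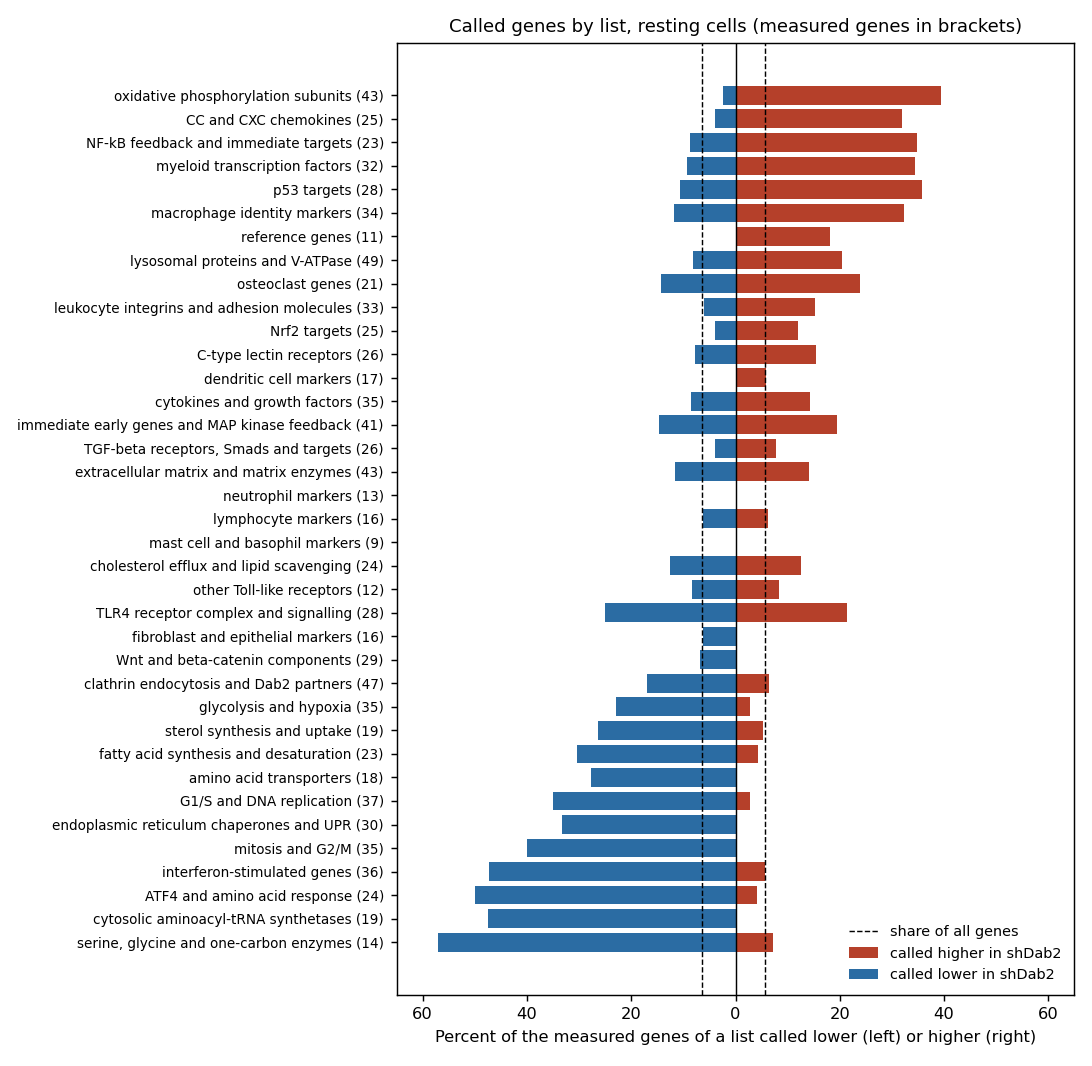
Share of the measured genes of each list that were called lower (blue, left) or higher (red, right) in resting shDab2 cells, with the number of measured genes in brackets and dashed lines at the shares of all genes (6.4% lower and 5.65% higher). Among genes that reached an intensity of 50 in either line, the shares were 12.1% lower and 10.6% higher, which are not drawn. The one-carbon, tRNA synthetase, ATF4 and interferon lists extend farthest to the left and the oxidative phosphorylation list farthest to the right.

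Subunits of oxidative phosphorylation were called higher for 17 of 43 (39.5%) and lower for 1, with a median of 0.22. With 1 array left out, 9 to 11 were called higher. Cox6b1, a subunit of cytochrome c oxidase, rose from 5506 and 5545 to 7157 and 7908 (0.44 ± 0.07, adjusted p = 0.0018). Ndufa1, of complex I, rose from 4874 and 4611 to 6014 and 6383 (0.38 ± 0.06, adjusted p = 0.0014). Sdha, of complex II, rose from 2585 and 2490.0 to 3288 and 3176 (0.34 ± 0.05, adjusted p = 0.0021). The exception was Atp5g1, which encodes a copy of the ATP synthase ring subunit and fell from 4346 and 4723 to 3050.0 and 3040.0 (-0.57 ± 0.07, adjusted p = 0.00038). Rplp0, a ribosomal protein gene often used as a reference, was higher by 0.44, while Actb, β-actin, lay at 23384 and 21900.0 on the shLuc arrays and 23384 and 22048 on the shDab2 arrays (0.00 ± 0.07, adjusted p = 0.99). Sdha is also among the 11 reference genes, of which 2 were called higher.

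Genes of glycolysis and hypoxia were lower for 8 of 35 and higher for 1, with a median of -0.07 (0.12 on unnormalized intensities). Pdha1, the E1 subunit of pyruvate dehydrogenase, fell from 1882 and 2043 to 676 and 662 (-1.48 ± 0.07, adjusted p = 4.8e-07). Car12, a carbonic anhydrase induced by hypoxia, fell from 1910.0 and 1763 to 889 and 835 (-1.05 ± 0.06, adjusted p = 2.3e-06). Bnip3l, a receptor for mitophagy, fell from 638 and 669 to 316 and 349.8 (-0.88 ± 0.07, adjusted p = 3.1e-05). Of 14 genes of the V-ATPase, which acidifies lysosomes, 8 were called higher and 0 lower, with a median of 0.30, whereas of 35 other lysosomal genes 2 were higher and 4 lower. That split was made after the values were seen. Atp6v0a1, a membrane subunit, rose from 642 and 616 to 1116 and 1196 (0.83 ± 0.06, adjusted p = 8.2e-06). Of the whole lysosomal list, 10 genes were called higher, and 5 to 7 with 1 array left out.

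Fatty acid synthesis and desaturation counted 7 of 23 genes lower and 1 higher, with a median of -0.15 that turned to 0.06 on unnormalized intensities. Fads1, the Δ5 desaturase, fell from 6018 and 6028 to 2750.0 and 2943 (-1.07 ± 0.08, adjusted p = 1.7e-05), and Elovl6, which elongates palmitate, fell by 0.55. Sterol synthesis counted 5 of 19 lower and 1 higher, with a median of -0.13 (0.13 on unnormalized intensities, as over all genes), and Msmo1, a methylsterol oxidase, fell by 0.49. Abca1, which exports cholesterol, lay at 75.7 and 80.8 in shLuc and 279 and 260.1 in shDab2 cells (1.32 ± 0.08, adjusted p = 2.4e-06). Scarb1, a receptor of high-density lipoprotein, fell from 1003 and 979.5 to 565 and 544 (-0.79 ± 0.06, adjusted p = 1.2e-05). Hmox1, heme oxygenase, rose from 1547 and 1711 to 2725 and 2636 (0.70 ± 0.06, adjusted p = 4.2e-05). The exporter and the heme enzyme were thus higher and the lipoprotein receptor lower.

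For the signaling pathways to which Dab2 has been tied, the counts were as follows, against 5.65% of all genes called higher and 6.4% lower. Of 26 measured genes of TGF-β signaling, 2 were higher (7.69%) and 1 lower (3.85%). Tgfbr2, the ligand-binding TGF-β receptor, fell from 13208 and 12937 to 7786 and 7724 (-0.75 ± 0.06, adjusted p = 1.5e-05). Id2, a target of Smads that also acts in myeloid cells, rose from 1065 and 1172 to 2114 and 1770.0 (0.77 ± 0.09, adjusted p = 0.00032). Skil, a Smad corepressor, was higher by 0.50. Of 29 Wnt and β-catenin genes, 0 were higher and 2 lower (6.9%), and Ctnnb1, β-catenin, fell from 5872 and 5501 to 3742 and 4006 (-0.55 ± 0.06, adjusted p = 0.00021). In the extracellular matrix list, with 6 of 43 higher and 5 lower, Tnc, the matrix protein tenascin C, rose from 60.2 and 60.2 to 199 and 213 (1.21 ± 0.06, adjusted p = 1.1e-06), and Nid2, a basement membrane protein, fell from 264 and 254 to 88.1 and 93.9 (-1.13 ± 0.15, adjusted p = 0.0006).

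Several of the largest differences lay outside these lists. Scel, sciellin of epithelial cells, lay at 148 and 145 in shLuc and 1108 and 1095 in shDab2 cells (2.55 ± 0.08, adjusted p = 2.1e-08), and with LPS at 65.1 and 55.5 in shLuc and 75.2 and 82.9 in shDab2 cells. Slc17a6, a vesicular glutamate transporter, rose from 76.8 and 75.4 to 524 and 504 (2.16 ± 0.06, adjusted p = 1.4e-08). Il4i1, an amino acid oxidase of activated myeloid cells, rose from 108 and 96.4 to 494 and 554 (1.91 ± 0.07, adjusted p = 1.2e-07). All 3 were thus 5.13 to 7.53-fold higher by the ratio of means. Hpgd, which inactivates prostaglandins, rose from 3839 and 3770.0 to 10967 and 10208 (1.46 ± 0.06, adjusted p = 1.6e-07). S100a10, a partner of annexin A2, fell from 15394 and 13926 to 5067 and 5635 (-1.45 ± 0.08, adjusted p = 1.6e-06). Clip1, a protein of microtubule ends, and Nucb2, which binds calcium, fell by 1.55 and 1.55.

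A few probes were near 0 on some arrays and bright on others. Csnk1a1, casein kinase 1α, was read by 1 probe at -1 and 4.38 in resting shLuc cells and 2236 and 2170.0 in shDab2 cells (5.45 ± 0.07, adjusted p = 1.3e-11), while on the 4 LPS arrays of both lines it lay between 1720 and 2425. Laptm4a, a lysosomal membrane protein, lay at 2848 and 3385 in shLuc and 1.5 and -5.88 in shDab2 cells (-6.05 ± 1.35, adjusted p = 0.016), but at 3559 and -1.75 on the 2 shDab2 LPS arrays, and the call was lost with any 1 array left out (adjusted p up to 0.09). In all, 11 genes, each with 1 probe, were under 10 on both PBS arrays of a line while the other line averaged 200 or more, and for some of them, such as Mdn1, Cdc42bpa and Atp13a3, which were named after the values were seen, the bright array had a dark replicate. No ratio of levels is given for Csnk1a1 and Laptm4a. H13, a signal peptide peptidase, had 1 low array of 4, at 267 and 22 in shLuc and 508 and 495 in shDab2 cells (1.87 ± 0.47, adjusted p = 0.028), and was called neither with all probes of the gene averaged nor without either shDab2 array.

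**Figure D5:**
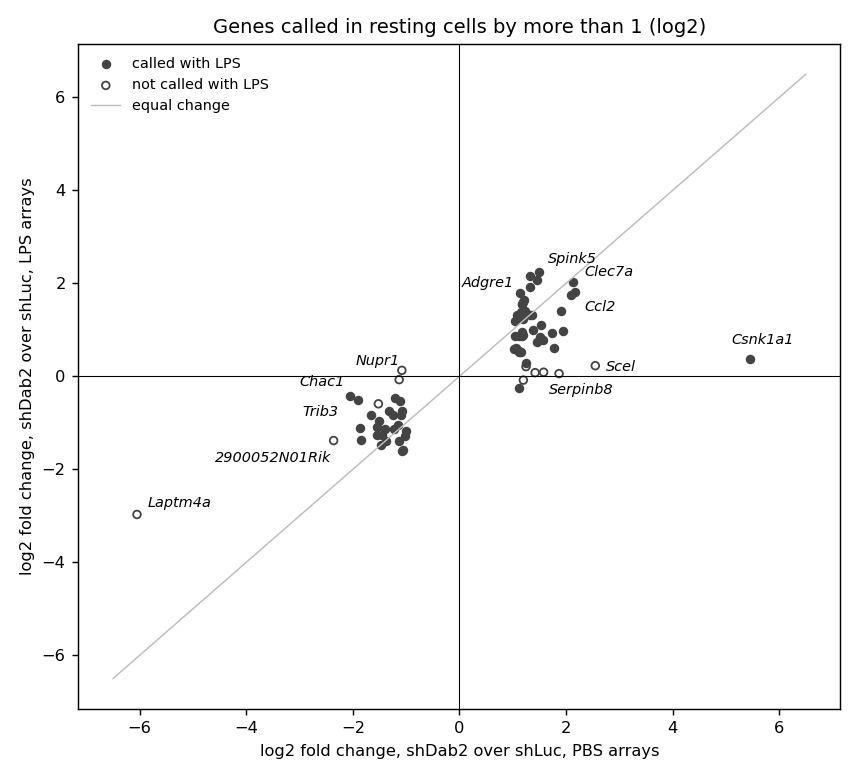
Log2 fold change of shDab2 over shLuc cells on the PBS arrays (horizontal) and on the LPS arrays (vertical) for the 49 higher and 32 lower genes called in resting cells by more than 1. Filled points were also called with LPS, open points were not, the grey line marks equal change, and Csnk1a1, Scel and Serpinb8 lie near 0 on the vertical axis.

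The LPS arrays give a second reading of the lines on other RNA. Of the 49 genes called higher by more than 1 at rest, 42 were called higher with LPS too, 1 was called lower and 6 were not called, and their median log2 fold change was 1.25 at rest and 0.95 with LPS. Of the 32 called lower by more than 1, 27 were lower, 0 higher and 5 not called, with medians of -1.28 and -1.07. Clec7a gave nearly the same difference in both (2.14 and 2.04), as did Gnaq, a G protein subunit (1.36 and 1.32), Pdha1 (-1.48 and -1.47) and S100a10 (-1.45 and -1.27). Serpinb8, a protease inhibitor, was higher by 1.58 at rest and by 0.09 with LPS (adjusted p = 0.51). Agreement was less complete over all resting calls. Of the 1078 genes called higher at rest, 596 were called higher with LPS and 33 lower. Of the 1221 called lower, 831 were called lower with LPS and 65 higher. Over all genes, 9.07% were called higher and 11.6% lower with LPS, and the difference between the contrasts was called for 5.78%.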

How the data were processed

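Total RNA of shLuc and shDab2 cells was hybridized to 8 arrays, 2 per group, and the groups were taken from the labels. The deposited table holds linear intensity values per array, which the authors had background-subtracted (-11 to 65470) and had not normalized between arrays. The scanner software is not given in the sources used here. A second deposited table of group means of intensity, made by the authors, was not used. All 8 arrays were quantile-normalized, 50 was added and the log2 was taken. Group means were fitted over all 8 arrays with limma 3.58.1 (R 4.3.3; eBayes with a variance trend, 4 residual and 6.7 prior degrees of freedom), and p-values were adjusted by Benjamini-Hochberg over 26423 probes. The fit was tested on simulated data. The shDab2 minus shLuc contrast of the PBS arrays is the main comparison, and the same contrast of the LPS arrays shares no array with it. A ratio is written as "at least" where both arrays of a group lay below 50. Symbols are those of the array annotation, 4547 probes have none, and probes of 3 genes had opposite calls. Of 1011 symbols on 37 lists, 937 were measured. Named genes were Dab2, the 20 largest rises and 20 largest falls among called genes with arrays that do not overlap, up to 8 called genes per list, and a fixed set of receptor, clathrin and marker genes. The lists, the genes and the comparison were chosen with earlier results of these data known. Alternatives were the normalization, the offset, a filter on dim probes, the arrays in the fit, the variance model, the replicate number as a block, the probe that stands for a gene and each PBS array left out.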

Additional observations from a re-analysis of the deposited data

Results flagged for a closer look

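The difference between the lines with LPS was set against that at rest by the interaction term of the same limma fit, for the genes with the largest resting changes, the fixed genes, and named genes called in opposite directions. The value in brackets is the log2 fold change of shDab2 over shLuc cells with LPS minus that at rest, adjusted p under 0.05 for each. The 2 contrasts share no arrays, and no cause was tested.

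The first genes below were chosen as the largest resting changes, a choice that by itself favors a difference closer to 0 with LPS. Of the genes higher at rest, the difference was less with LPS for Csnk1a1 (-5.07), Scel (-2.33), Serpinb8 (-1.49), Trp53inp1 (-1.34), Pdgfa (-1.17), Gucy2g (-0.98), Egr2 (-0.79), Bdh2 (-0.78), Hpgd (-0.71), Phlda3 (-0.68), Il4i1 (-0.50), Phlda1 (-0.41) and Ccl2 (-0.34). It was greater with LPS for Spink5 (0.75) and Adgre1 (0.62). Of the genes lower at rest, the difference came closer to 0 with LPS for Chac1 (1.63), Trib3 (1.39), Aldh1l2 (0.82), Slc1a4 (0.75), Prkx (0.73), Ywhae (0.57), Glrp1 (0.55), Cth (0.48) and Clip1 (0.46). The value of Csnk1a1 rests on its 2 dark shLuc arrays at rest.

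The next genes were chosen because they were called in opposite directions in the 2 contrasts, so their values describe that choice and are no further test of it. Genes called lower at rest and higher with LPS were Isg20 (2.17), Rsad2 (2.09), Ccl5 (1.67), Tnfaip2 (1.57), Oasl2 (1.56), Isg15 (1.45), Irf7 (1.16) and Tnf (0.69). Ifnb1 (2.62) was below 50 on all 4 resting arrays, so its resting difference and this value depend on the added 50 and give no size. Ccl5 and Tnfaip2 were dim at rest. The resting calls of Ccl5 (adjusted p up to 0.11), Tnfaip2 (0.053) and Tnf (0.16) were lost with some arrays left out. Genes called higher at rest and lower with LPS were Polk (-1.05) and Nfatc1 (-0.68), and the resting call of Nfatc1 was lost with any 1 array left out (adjusted p 0.093 to 0.2). Among the fixed genes, Tlr4 (0.56), Myd88 (0.48) and Itgam (0.56) were raised relative to rest, while Mki67 (-0.43) was lowered. Groups of 2 arrays are too small to test for a single array that stands apart.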

How the results depend on the processing

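Of the named genes that were called, 4 changed sign under an alternative, each without normalization between arrays: Mki67 (log2 fold change 0.02), Unc93b1 (0.02), Cyp51 (0.01) and Eif2ak3 (0.05). That setting leaves the higher intensity of the shDab2 arrays in place, with a median gene at 0.13. It called 5258 genes higher and 339 lower and put 40 genes past a rise of 1.5. It called lower 3 of the amino acid transporters, 3 of the replication, 0 of the mitosis and 9 of the interferon-stimulated genes, and higher 18 p53 targets, 21 macrophage markers, 27 lysosomal genes and 37 oxidative phosphorylation subunits. List medians below -0.07 that turned to higher there were those of replication (0.06), mitosis (0.08), interferon-stimulated (0.02), sterol (0.13), fatty acid (0.06) and endoplasmic reticulum genes (0.04), and those between -0.07 and 0 all turned to higher as well. An offset of 16 put 37 and one of 100 put 15 genes past a rise of 1.5. Scaled by the 75th percentile of each array, 971 genes were called higher and 1197 lower.

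With each array left out in turn, 54.4 to 57.4% of the calls were kept and 0 turned direction. The counts were 625 to 662 genes higher and 694 to 740 lower, 20 to 25 and 17 to 27 past 1.5, 11 to 13 ATF4, 4 to 5 transporter, 7 to 8 one-carbon and 8 to 10 tRNA synthetase genes lower, 8 to 9 p53 targets, 9 to 10 macrophage markers, 5 to 6 chemokines, 9 to 11 oxidative phosphorylation and 5 to 7 lysosomal genes higher, and 4 to 9 replication, 7 to 8 mitosis and 14 to 16 interferon-stimulated genes lower. An array left alone in its group was assumed to vary like the others. The labels do not say whether the replicate numbers pair the samples. The correlation of deviations between groups was -0.0457 to 0.173, which does not decide it. With the replicate block, 1016 genes were called higher and 1164 lower. Signal limits dim genes: the median SD between replicates was 0.623 (log2) below an intensity of 10 and 0.046 above 1000.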
